A study of Mus musculus with 12 samples.

Results

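The Bcl2 family genes examined here decide at the mitochondrion whether a cell lives or dies. They were read in mouse mast cells grown from bone marrow, at a mature stage and at a precursor stage. The members were Bcl2, Mcl1 and Bcl2l2 (survival genes), Bax and Bak1 (effectors), and Bcl2l11, Bad, Bid, Bbc3 and Pmaip1 (BH3-only genes). A probe set, a group of short array probes read as 1 value, was taken where its annotated symbol was exactly 1 of these 10 names. This gave 29 of the 45137 probe sets on both chips, for 9 of the 10 genes. No set matched Bax by this rule, and Bax is not analysed here.

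Survival proteins of the family bind and hold back the effector proteins Bax and Bak, which otherwise open the outer mitochondrial membrane and release cytochrome c. BH3-only proteins respond to stress or to loss of growth factors, and either neutralise the survival proteins or activate the effectors. Mast cells depend on growth factor signals such as interleukin-3 and stem cell factor, and withdrawal of these is a classical trigger of this pathway in them.

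The 3 mature cultures (M2, M4 and M6) were harvested after 57 to 110 days of growth in RPMI medium with interleukin-3, and the 3 precursor cultures (M1, M3 and M5) after 14 to 16 days in the same factor. All came from marrow of the femur and fibula. The mature culture M6 and the precursor culture M1 were labelled female and the others male. No strain, genotype or age of the animals is given in the sources used here. The labels put the purity of each culture at about 80% and list bone marrow stromal cells, monocytes and macrophages as possible contaminants. RNA of each culture was hybridised to both Affymetrix arrays of the mouse MOE430 set, MOE430A (here chip A) and MOE430B (chip B). The labels say no more than that the cultures were separate, so p-values measure the spread between these cultures.

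Median array signals were 533.9 to 691.6 for chip A, and for chip B 815.5 to 912.9. Precision is limited by the 3 cultures per stage. Mast cell genes such as Kit and Cpa3 were bright in all 6 cultures, with summed signals over 9 mast cell markers of 529021 to 904359 in mature and 542717 to 640429 in precursor cultures. Of these 9 only Hdc, the histamine-forming enzyme, was called, lower in the mature cultures. Of 15 measured monocyte and macrophage markers 7 were called lower in the mature cultures, whose summed signals were 18501 to 22824, against 57274 to 101349 in precursor cultures. Cx3cr1 of this list went the other way, at 9974 to 11550 in mature and 7927 to 8085 in precursor cultures, and was not called. It made up a large part of the mature sums. Mpeg1, Itgam and Ly86 were at the floor in all 3 mature cultures. Ly86 was also at the floor in 2 precursor cultures, and Itgam and Ly86 were too dim to be tested. The floor is the lowest value used, the 30th percentile of a chip (247 on chip A, 359 on chip B). In such cultures fewer cells of a type and less RNA per cell cannot be told apart.

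None of the members passed the test between mature and precursor cultures, although 3 of the 5 probe sets of Bcl2 were higher in every mature culture than in any precursor culture. Mcl1, Bcl2l2, Bcl2l11, Bad, Bbc3 and Pmaip1 overlapped between the stages in every set. The test was limma at a Benjamini-Hochberg adjusted p under 0.05. It ran over all probe sets of a chip with at least 3 of 6 arrays above the chip's median signal. This filter kept 20 of the 29 member sets, standing for 8 genes. Among these 20 sets 0 were called, where 0.527% of all tested sets were called on chip A and 0.0926% on chip B. At an unadjusted p under 0.05, 3 member sets passed, all of Bcl2, against 6.59% of chip A and 6.42% of chip B. The groups did not overlap in the same 3 tested sets, where the share of tested sets lying wholly higher in the mature cultures was 6.14% for chip A and 6.17% for chip B. Wholly lower sets made up 6.06% on chip A, and no tested member set was among them. Of the 20 differences 10 lay above 0 and 10 below, with a median log2 difference, mature minus precursor, of 0.0091, against 0.018 over the whole of chip A as tested and 0.0040 over chip B. All 5 Bcl2 sets lay above 0. Of the 15 tested sets of the other members 5 lay above 0 and 10 below, with a median of -0.041.

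**Figure D1:**
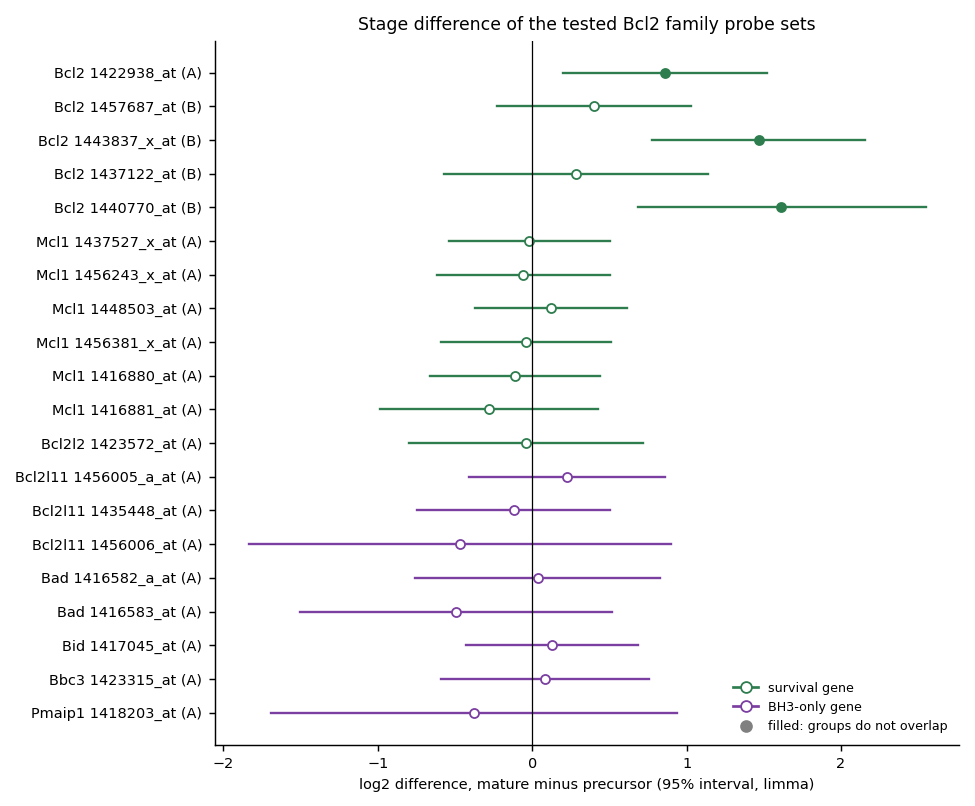
Log2 difference, mature minus precursor, of the 20 tested probe sets of the family, with 95% intervals from limma (3 cultures per group). Filled points mark the 3 Bcl2 sets whose groups do not overlap, and the intervals of the 17 other sets all cross 0.

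Promoter sequences are shown for 2 survival genes that illustrate the contrast in the data. Bcl2 had the widest differences among the members examined here, which are not the whole family. Mcl1 was bright and overlapping in all of its sets. The sequences are the 250 bases before the annotated start, from RefSeq on GRCm38.p6, read 5′ to 3′ on the gene's strand. Bcl2 lies on the minus strand at chr1:106714291-106714540 and Mcl1 on the plus strand at chr3:95658471-95658720. Capitals mark the GC box motif GGGCGG, or its reverse complement CCGCCC.
Bcl2: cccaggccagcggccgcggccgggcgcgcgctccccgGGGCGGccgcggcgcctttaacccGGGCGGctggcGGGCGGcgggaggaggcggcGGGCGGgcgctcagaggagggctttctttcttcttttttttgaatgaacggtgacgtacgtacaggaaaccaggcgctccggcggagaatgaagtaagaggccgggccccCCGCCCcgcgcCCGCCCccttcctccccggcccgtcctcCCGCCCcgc
Mcl1: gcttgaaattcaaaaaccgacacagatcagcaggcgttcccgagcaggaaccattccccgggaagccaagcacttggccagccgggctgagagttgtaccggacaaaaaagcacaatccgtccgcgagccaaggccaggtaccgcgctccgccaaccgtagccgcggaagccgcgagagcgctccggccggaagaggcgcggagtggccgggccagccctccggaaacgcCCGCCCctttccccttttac

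The Bcl2 window was 74.8% G or C and held 7 copies of GGGCGG on both strands together, and the Mcl1 window was 64.4% G or C and held 1 copy. The motif occurred in 32.7% of 32851 mouse promoter windows of this length. It was matched 7, 5 and 1 times in the windows of Bbc3, 3 and 2 times in those of Bcl2l11, and 3 and 0 times in those of Bad. The window of Bid held 3 matches, that of Bax 2, that of Bcl2l2 1 and that of Bak1 0. Both strands were also searched for TATAAA (12.4% of windows), TTCNNNGAA, a STAT-type motif (7.02%), AGATAA (9.99%) and TGATAA (7.94%), both GATA-type, GTAAACA, a FOXO-type motif (3.17%), and the E-boxes CACGTG (6.02%) and CATGTG (12.3%). Neither window held any of these. In the windows of the other members GTAAACA occurred once in 1 window of Bcl2l11 and in 1 of Bbc3, and CACGTG once in 1 window of Bbc3 and in that of Bax. A match is a description of the letters only.

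Bcl2 encodes the founding survival protein of the family and lies on chromosome 1. Set 1443837_x_at on chip B had signals of 14835, 13655 and 13501 in the mature cultures M2, M4 and M6, against 7266, 6198 and 2879 in the precursor cultures M1, M3 and M5. Set 1440770_at on chip B had 6775, 8767 and 7591 in mature cultures, against 3952, 3644 and 1091 in precursor cultures. Set 1422938_at on chip A had 3333, 2822 and 3926 in mature cultures, against 2276, 2227 and 1216 in precursor cultures. In each of these 3 sets every mature culture was above every precursor culture, and M5 was the lowest of all 6.

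For set 1443837_x_at the log2 means were 13.77 ± 0.07 in mature and 12.31 ± 0.71 in precursor cultures (SD, n = 3 each). The fold was 2.76 (95% interval 1.71 to 4.45, limma adjusted p = 0.155, unadjusted 0.000654). For 1440770_at the log2 means were 12.90 ± 0.19 in mature and 11.29 ± 1.04 in precursor cultures (SD, n = 3 each), a fold of 3.06 (1.60 to 5.84, limma adjusted p = 0.372). The precursor cultures thus varied more among themselves than the mature ones in both sets. For 1422938_at the means were 11.70 ± 0.24 in mature and 10.84 ± 0.51 in precursor cultures (SD, n = 3 each), a fold of 1.82 (1.15 to 2.87, limma adjusted p = 0.493).

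The other 2 Bcl2 sets, both on chip B, overlapped between the stages. Set 1457687_at had signals of 24426, 15502 and 23140 in mature cultures, against 16345, 21899 and 10657 in precursor cultures, a log2 difference of 0.40 ± 0.29 (SE, limma adjusted p = 0.832). Set 1437122_at had 5440, 3796 and 6186 in mature cultures, against 2226, 7390 and 4323 in precursor cultures, a difference of 0.28 ± 0.39 (SE, limma adjusted p = 0.922). The precursor culture M3 was the highest of the 6 in 1437122_at but was below all mature cultures in the 3 sets above. The sets of Bcl2 therefore disagreed. They read the same gene and are not independent replicates, and the ending _x_at marks sets with probes that may match other transcripts.

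**Figure D2:**
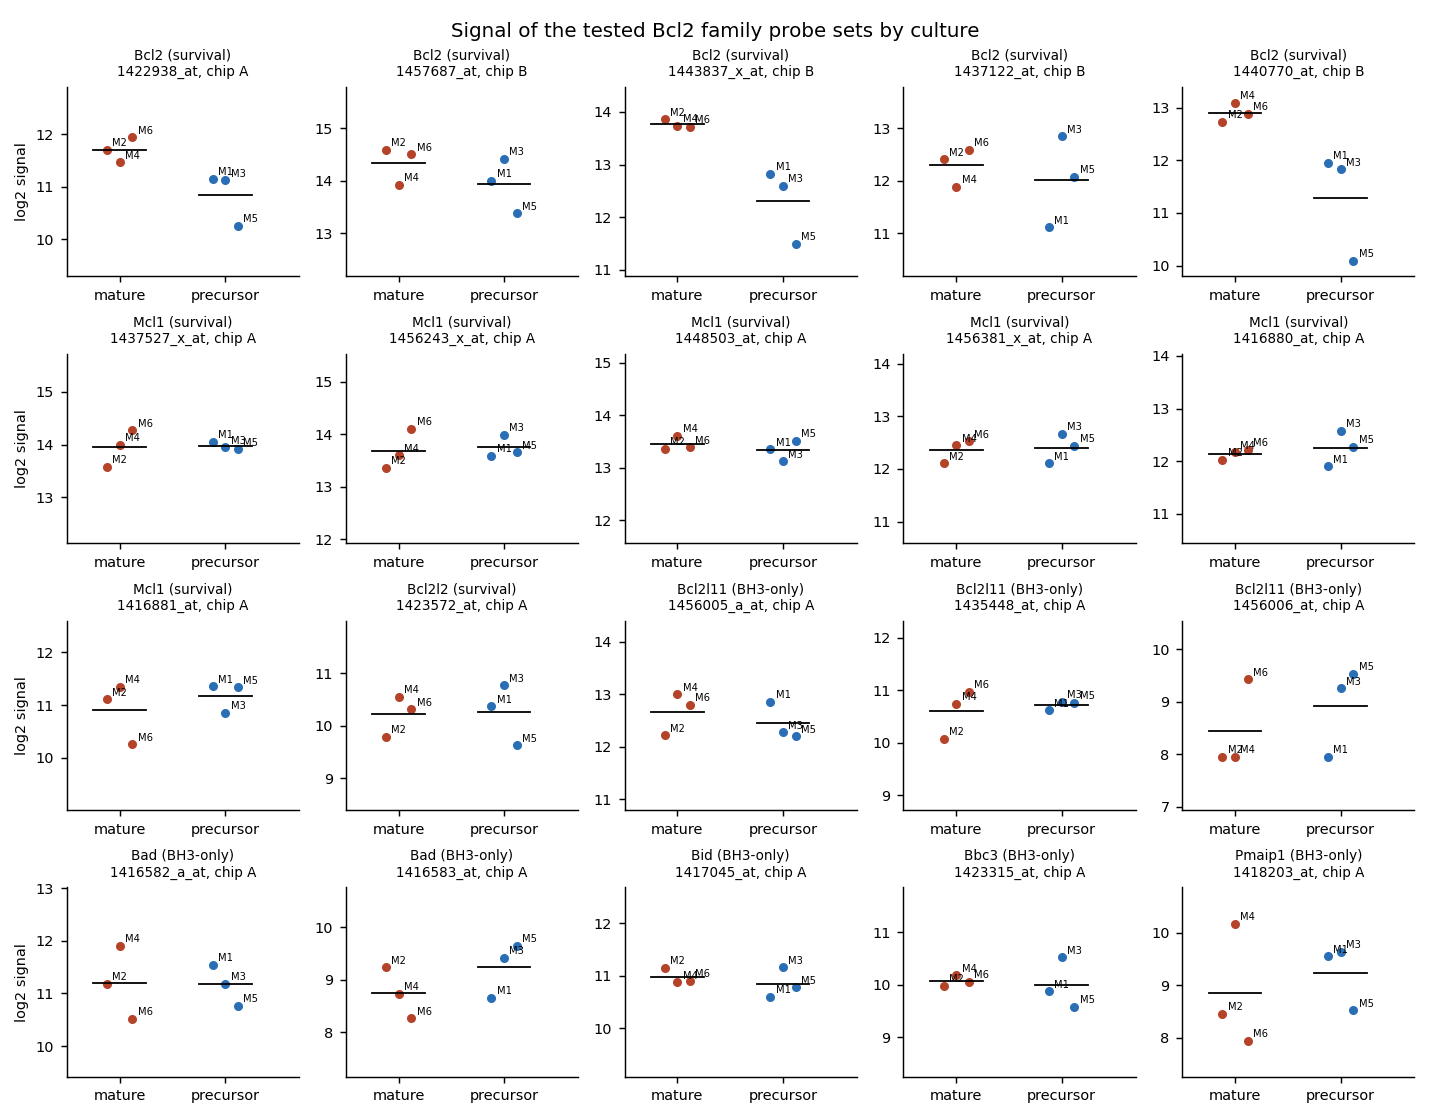
Log2 signal of the 20 tested probe sets in each culture, mature cultures left and precursor cultures right in each panel, with a bar at the group mean. Every panel spans the same number of log2 units. The groups are apart in 3 Bcl2 panels and overlap in the others.

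Markers of other cells and a measure of RNA quality differed between the same cultures as Bcl2. Of 12 neutrophil markers 1, Chil3, was called, and Chil3, S100a8 and Prtn3 were at the floor in all mature cultures. Summed neutrophil marker signals were 3241 to 6079 in the mature cultures, against 137362 in M1, 60351 in M3 and 295246 in M5. M5, lowest in Bcl2 in 4 of its 5 sets, also had the highest summed macrophage and neutrophil markers. In M3 the neutrophil sum was mostly Chil3, at 56623, and the neutrophil gene S100a8 was at the floor, as in all mature cultures, while its Bcl2 signal in the 3 sets was close to that of M1. Summed stromal markers, 8 genes with Igfbp4 called, were 6072 to 9237 in mature and 15628 to 24637 in precursor cultures, with Sparc at the floor in all 6. Igfbp4 and Fn1 made up most of that gap, Col1a1, Cxcl12 and Col5a2 had log2 differences of 0.68, 0.32 and 0.32, and the median of the list was 0.08. The basophil marker Mcpt8 was at 125 to 1925 in mature and 1502 to 41656 in precursor cultures. The 5′ signal of beta-actin, a control for intact RNA, was 9.926% to 10.27% of the 3′ signal in mature cultures, against 14.20% to 20.81% in precursor cultures. That of Gapdh overlapped, at 5.177% to 7.800% in mature and 7.429% to 10.98% in precursor cultures. The log2 5′ to 3′ ratio of spiked control RNA also overlapped, at -3.890 to -2.516 in mature and -3.930 to -2.975 in precursor cultures. The part of other cells in the Bcl2 values was not tested. That of RNA quality, as read by the actin ratio, cannot be told apart from stage, since the ratio does not overlap between the stages.

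With the log2 actin ratio as a covariate, added after the data were seen, the 3 Bcl2 differences were -0.16 (1443837_x_at), -0.91 (1440770_at) and -0.34 (1422938_at), none past the test. Stage and ratio share most of their variation in that fit, so it cannot tell them apart. Without M5, and with no covariate, the 3 differences were 1.06, 1.01 and 0.56, against 1.47, 1.61 and 0.86 with all cultures. Cultures were also split by fluidics station, by sex, and by the 5′ to 3′ ratio of spiked control RNA (M2, M3 and M5 high, the others low). The differences within these classes, with 1 or 2 cultures per stage in each, were 0.55 to 1.02 for 1422938_at, 0.78 to 2.03 for 1440770_at and 0.89 to 1.81 for 1443837_x_at. Their sign follows from the lack of overlap in these 3 sets and is no sign of stability. The overlapping sets gave 0.21 to 0.68 for 1457687_at and -0.32 to 1.47 for 1437122_at, the last above 0 in 3 of 6 classes.

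**Figure D3:**
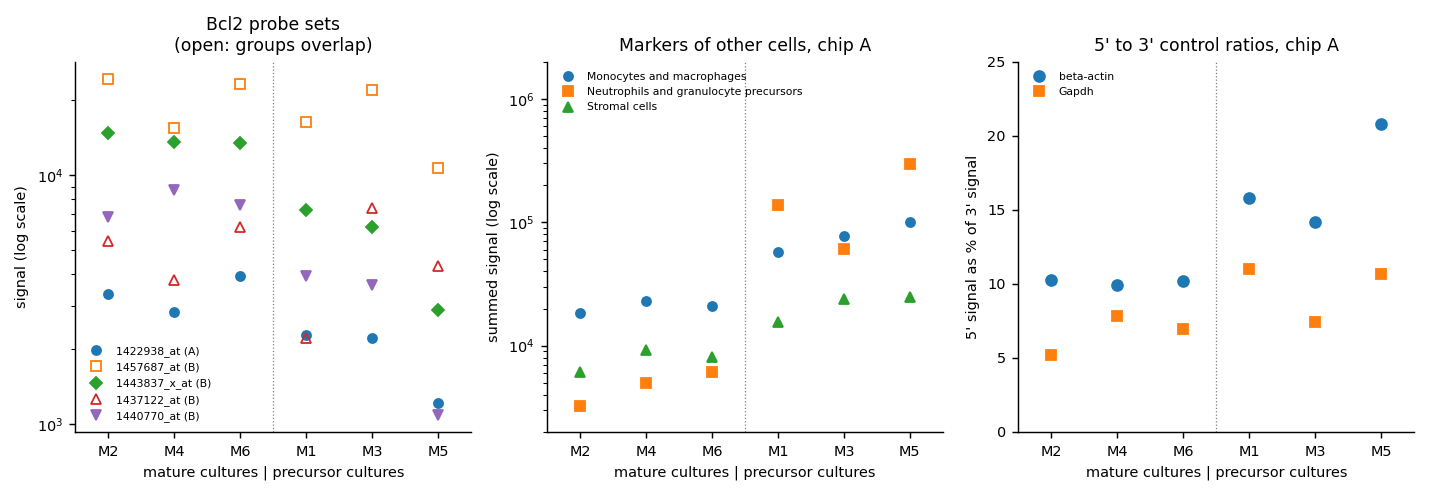
Left, signal of the 5 Bcl2 sets in each culture (log scale; open symbols, sets whose groups overlap). Middle, summed chip A signal of markers of other cells (log scale). Right, 5′ signal of beta-actin and Gapdh as a percent of the 3′ signal. Mature cultures stand left of the dotted line and precursor cultures right of it, and the actin ratio of 9.926% to 10.27% in mature cultures lies below the 14.20% to 20.81% of precursor cultures.

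Mcl1, a survival gene with a short-lived protein that mast cells are known to need, lies on chromosome 3. It had 6 sets on chip A, all tested and all overlapping. Set 1437527_x_at had signals of 12286, 16363 and 19804 in mature cultures, against 16947, 15855 and 15380 in precursor cultures, a log2 difference of -0.02 ± 0.24 (SE, limma adjusted p = 0.996). Set 1448503_at had 10491, 12496 and 10747 in mature cultures, against 10454, 8923 and 11675 in precursor cultures, a difference of 0.12 ± 0.22. Set 1416881_at had 2210, 2614 and 1214 in mature cultures, against 2625, 1840 and 2595 in precursor cultures, a difference of -0.28 ± 0.32. No culture was highest in all of these sets. The differences of all 6 sets ran from -0.28 to 0.12. The 95% interval was -0.99 to 0.43 for 1416881_at, the widest of the 6, and -0.54 to 0.51 for 1437527_x_at.

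Bcl2l2, which encodes the survival protein Bcl-w, lies on chromosome 14. Its tested set, 1423572_at, had signals of 889, 1495 and 1266 in mature cultures, against 1322, 1750 and 792 in precursor cultures, a log2 difference of -0.04 ± 0.34 (SE, limma adjusted p = 0.991). The precursor cultures held both its highest and its lowest value. Of its 3 sets below the filter, 1451029_at had 454, 178 and 1049 in mature cultures, against 274, 254 and 165 in precursor cultures, and its high mean in the mature cultures came from M2 and M6. The other 2 had log2 differences of 0.20 and 0.05.

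Of the effectors, Bak1 alone was measured, and dimly. Set 1418991_at had signals of 377, 329 and 756 in mature cultures, against 808, 370 and 536 in precursor cultures. The stages overlapped. Set 1425716_s_at was at the floor in all 3 mature and 2 precursor cultures. Neither set passed the filter, so Bak1 has no test.

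The BH3-only genes had 12 sets, 8 of them tested, with log2 differences from -0.49 to 0.22 and a median of -0.04. Bcl2l11 encodes Bim, a BH3-only protein induced when cytokines are withdrawn. Its set 1456005_a_at had signals of 4769, 8172 and 7117 in mature cultures, against 7458, 4959 and 4707 in precursor cultures, a difference of 0.22 ± 0.29 (SE, limma adjusted p = 0.943). The lowest 2 precursor values lay beside the lowest mature value, and the highest precursor value lay between the upper 2 mature values. Set 1435448_at had 1085, 1715 and 2006 in mature cultures, against 1572, 1763 and 1731 in precursor cultures, and set 1456006_at was at the floor in 2 mature cultures and 1 precursor culture. The differences of these 2 sets were -0.12 and -0.47. The 2 untested sets differed by -0.13 and -0.0077.

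Bad, a BH3-only protein held inactive by phosphorylation while growth factors are present, gave 2 sets. Set 1416582_a_at had signals of 2320, 3853 and 1467 in mature cultures, against 3002, 2322 and 1744 in precursor cultures, a log2 difference of 0.04 ± 0.36 (SE, limma adjusted p = 0.993). Set 1416583_at had 604, 424 and 308 in mature cultures, against 403, 681 and 799 in precursor cultures, a difference of -0.49 ± 0.46. The 2 sets put different cultures highest, M4 in the first and M5 in the second.

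Bid links death receptors to the mitochondrion after cleavage by caspase-8. Its tested set, 1417045_at, had signals of 2266, 1883 and 1909 in mature cultures, against 1557, 2284 and 1757 in precursor cultures, a log2 difference of 0.13 ± 0.25 (SE, limma adjusted p = 0.962). Set 1447873_x_at on chip B had 142, 518 and 522 in mature cultures, against 796, 900 and 939 in precursor cultures. Here every mature culture was below every precursor culture, but the set did not pass the filter and has no test, and M2 was at the floor. Lower values without overlap were found in 5.83% of tested sets on chip B, a base that does not include this set. The share among sets below the filter was not computed. The remaining set, 1448560_at, was at the floor in all 6 cultures. The 2 measured sets of Bid thus lay in opposite directions.

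Bbc3 and Pmaip1 encode Puma and Noxa, BH3-only proteins known as p53 targets. The Bbc3 set 1423315_at had signals of 1011, 1161 and 1060 in mature cultures, against 939, 1465 and 762 in precursor cultures, a log2 difference of 0.08 ± 0.30 (SE, limma adjusted p = 0.981). The mature cultures lay inside the range of the precursors. The Pmaip1 set 1418203_at had 351, 1153 and 239 in mature cultures, against 749, 795 and 368 in precursor cultures, a difference of -0.38 ± 0.60 (SE, limma adjusted p = 0.952). M4 was the highest of the 6 cultures and M6, at the floor, the lowest, so the mature cultures spanned the widest range.

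The stage difference was also compared between the sexes, with 1 female culture at each stage. For no member did the difference between the sexes pass the test, and limma's interaction of stage and sex called 0 sets on either chip. At an unadjusted p under 0.05, 4 of the 20 tested member sets passed, 1 each of Bad, Mcl1, Bcl2l11 and Bcl2 (1437122_at), where 7.56% of chip A and 5.72% of chip B did. The member with the lowest unadjusted p was Bcl2l11 in set 1456006_at (0.0118, limma adjusted p = 0.547).

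For 4 members whose brightest tested set, taken from chip A before chip B, spanned more than 1 log2 unit over the 6 cultures, the genes with the most similar profile were found on the same chip, by the root mean square difference of centred log2 signals. For Bcl2, in 1422938_at, these were Ttc14 (0.0948) and Kif1b (0.109). Bcl2l2 was closest to Tasp1 (0.0909) and Cttn (0.0926), and Bad to Fzd4 (0.0931) and Hnrnpl (0.141). Pmaip1 was closest to Tmem184b (0.202) and Igf2r (0.205). With 6 cultures and a whole chip searched, close profiles are a description only.

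Genes that act around the family were counted in 4 lists of 103 genes, of which 81 were tested. By the brightest set of each gene 0 of the 81 passed limma's test, where 0.399% of all 11769 tested genes were called, and 0 passed at an unadjusted p under 0.05, where 6.78% of all genes did. The groups did not overlap in 10 of them, where each direction held 6.24% of all tested genes. Becn1, Daxx, Fadd and Ywhaq were the 4 higher in the mature cultures, and Casp1, Casp2, Casp6, Casp8, Tnfrsf1b and Foxo4 the 6 lower. All of these but Casp6 were chosen for naming after their values were seen. The median log2 difference of the 81 genes was 0.0031, against 0.012 over all genes.

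The 15 tested genes among other Bcl2 relatives had a median log2 difference of -0.06. The 2 with the largest differences were Bmf, a BH3-only gene, with signals in 1454880_s_at of 977, 4102 and 4070 in mature cultures, against 5886, 3525 and 2806 in precursor cultures (-0.61 ± 0.51, SE), and Vdac2, a channel of the outer mitochondrial membrane known to bind Bak (-0.56 ± 0.31). Among the mature cultures only M2 was low in 1454880_s_at. Of the Bmf sets below the filter, 1422995_at differed by 0.45, with M4 the lowest mature culture. The other, 1458325_x_at, was at the floor in all 3 mature and 2 precursor cultures.

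The 22 tested genes of the apoptosome and caspases had a median of -0.12, and 4 of them lay wholly lower in the mature cultures, beside 6.24% of all genes. Casp6, an executioner caspase, had signals of 1122, 1044 and 919 in mature cultures, against 1433, 1263 and 2003 in precursor cultures (log2 difference -0.58 ± 0.27, SE, limma adjusted p = 0.748). Its further set on chip B overlapped (-0.79 ± 0.60). Casp8, the initiator caspase of death receptors, which cleaves Bid, had 1782, 1248 and 1458 in mature cultures, against 2057, 1878 and 2459 in precursor cultures (limma adjusted p = 0.769). Casp4, an inflammatory caspase, had the largest difference (-0.64 ± 0.45) and overlapped. The 7 macrophage markers called lower lie in the same cultures, and their part in the caspase values was not tested.

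The 13 tested death receptor genes had a median of -0.01. Ripk3, a kinase of necroptosis, had a log2 difference of -0.75 ± 0.40 and Tnf, a death receptor ligand, 0.60 ± 0.49 (SE), both with overlap. The 31 tested regulators of family members had a median of 0.08. Foxo3, a transcription factor known to induce Bcl2l11 and Bbc3, differed by 0.69 ± 0.36 in 1434831_a_at and 0.42 ± 0.28 in 1434832_at. Pim1, a kinase known to phosphorylate Bad, had signals in 1435458_at of 92911, 98598 and 245187 in mature cultures, against 87531, 128754 and 56399 in precursor cultures (0.61 ± 0.39, SE, limma adjusted p = 0.842). The high mature mean of Pim1 came from M6.

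**Figure D4:**
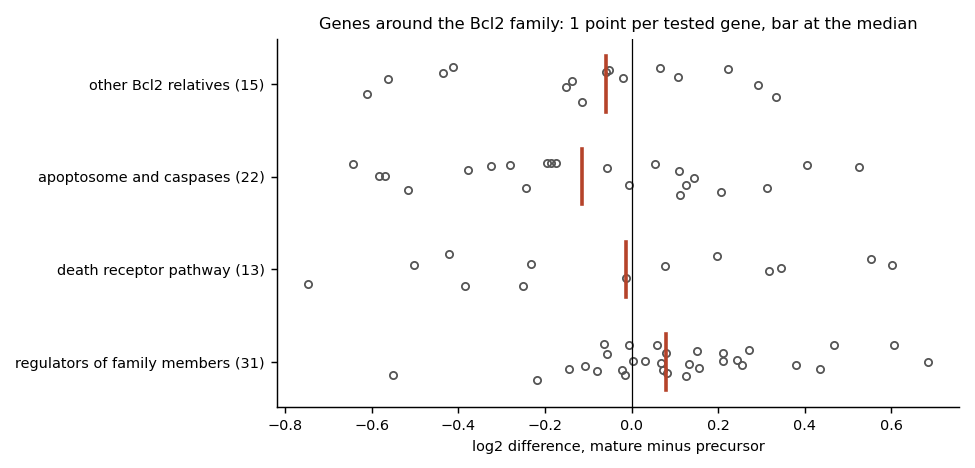
Log2 difference, mature minus precursor, of the 81 tested genes around the family, 1 point per gene by its brightest set, with a bar at the median of each list. The points of every list lie on both sides of 0, between -0.75 and 0.69, and none passed the test.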

How the data were processed

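Total RNA of 6 cultures was read on 12 arrays. The deposited matrices hold linear array intensity, 1 value per probe set, which the authors made with MAS5, per the submitters' processing notes; version and settings are not given in the sources used here. On each chip the mean without the top and bottom 2% of sets, averaged over its 6 arrays, was about 1500. The other deposited files, instrument records (unit: other), were read for the fluidics station only.

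The chips were handled apart. The 30th percentile (247 for chip A, 359 for chip B) served as a floor before log2 was taken. Sets with at least 3 of 6 arrays above the chip's median (582 and 864) were tested, 11576 of chip A's 22626 and 11880 of chip B's 22511. A single gene symbol was given for 20380 chip A sets and 14661 chip B sets, several for 691 and 245, and none for 1555 and 7605. Symbols come from GEO's platform annotation. Genes of the lists around the family were also matched by the RefSeq symbol of a set's gene identifier, and members by the annotated symbol alone. The stages were compared by limma 3.58.1 under R 4.3.3 (lmFit, eBayes with an intensity trend, no covariate, two-sided), and the fit was tested on simulated data. An exact test of 3 against 3 cultures cannot give a p under 0.1, so none was used. Each SD is over 3 cultures, and each SE is limma's. Promoter entries were matched by symbol for 9 of the 10 members.

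The members, the gene lists, the markers and the named-gene rule were chosen with earlier results of these data known. The rule named all members and, for each list with fewer than 2 genes past the test, the 2 genes with the largest absolute difference by the brightest tested set, chip A before chip B. It also named the 2 most similar profiles for members spanning more than 1 log2 unit. Alternatives were floors, filters, scalings, sex or fluidics station as a block, no intensity trend, array weights, the mean over all sets of a gene, and each culture left out. A block for the spike control split, an actin ratio covariate and a stage by sex interaction were added after the data were seen.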

Additional observations from a re-analysis of the deposited data

How the results depend on the processing

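No member passed the test under any of 18 settings, counting each culture left out in turn with the floor and tested sets of the full data. That way of leaving out cultures was settled after counts with both recomputed, which differed, had been seen. The lowest limma adjusted p, 0.0712, was that of Bcl2 set 1443837_x_at with a floor at the 50th percentile, and over the settings its adjusted p ran up to 1.00. Only Mcl1 set 1448503_at kept its sign throughout; there were 33 sign changes over the 19 other tested sets. The actin 5′ to 3′ covariate turned the sign of 10 sets by at least the residual SD. These were Bcl2 1422938_at (-0.34), 1457687_at (-0.82), 1443837_x_at (-0.16) and 1440770_at (-0.91), Bcl2l11 1456005_a_at (-0.18) and 1456006_at (0.44), Bad 1416582_a_at (-0.79) and 1416583_at (0.14), Bid 1417045_at (-0.18) and Bbc3 (-1.03). The ratio does not overlap between the stages, so stage and ratio share most of their variation in that fit. The mean over all sets of a gene kept the sign of the brightest tested set for Bcl2 and Mcl1. It changed the sign for Bcl2l2 (0.29, against -0.04), Bcl2l11 (-0.10, against 0.22), Bad (-0.23, against 0.04) and Bid. The mean over all sets of Bid was -0.27, against 0.13 for its tested set. That mean takes in the dim untested set 1447873_x_at (-0.93), with M2 at the floor, and 1448560_at, at the floor in every culture. Leaving out 1 culture gave 1.01 to 1.94 for Bcl2 1440770_at, 1.06 to 1.73 for 1443837_x_at and 0.56 to 1.02 for 1422938_at, the low ends without M5.

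Counts of called sets over whole chips, 61 on chip A and 11 on chip B, moved more. Chip A gave 1 with no filter on dim sets, 39 with the spike control block, 1 with the actin covariate, and 21 (without M5) to 59 (without M3) with a culture left out, 25 without M2. Chip B gave 17 with sex blocked, 4 with no floor, 17 with a floor at the median, 0 with no filter, 6 with mean signal above the 60th percentile, 3 with no intensity trend, 7 with array weights, 6 with the spike control block and 0 with the actin covariate. With a culture left out it gave 3 (without M6) to 11 (without M1), 5 without M2 or M4 and 6 without M5. The cause was not tested. No paired analysis was possible because the stages share no replicate numbers.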
